A study of Homo sapiens with 12 samples.

Results

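The plasma membrane calcium ATPases (PMCAs) and the NKAIN proteins were followed through the RNA-seq of human embryonic kidney 293T (HEK293T) cells, a transformed line. The set held 8 genes of the 33093 in the count table, the 4 PMCA genes ATP2B1 to ATP2B4 and the 4 NKAIN genes NKAIN1 to NKAIN4, taken by name. The set was chosen because ATP2B3 and NKAIN2 had higher counts in NFKB1 S80A cells than in wild type (WT) cells, so every difference between the genotypes in these 8 genes is given below as a description, with no test. The comparisons of TNFα with no treatment played no part in that choice and were tested.

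The study had 12 samples in 4 groups of 3, namely WT cells and NFKB1 S80A cells, each either untreated or given 10 ng/ml TNFα for 3 h. TNFα is an inflammatory cytokine that activates NF-κB. Both kinds of cell had the HEK293T background, and in the S80A cells genome editing with CRISPR/Cas9 had replaced serine 80 of p50, the NF-κB subunit made from NFKB1, with alanine. Edited cells were grown up from single cells after serial dilution, so the genotype cannot be told apart from the clone in which it sits, and the number of clones is not given in the sources used here. The counts carry no base calls, so the substitution itself could not be checked. Samples are named here by group and by the number n1, n2 or n3 in their labels.

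PMCAs are P-type pumps that use ATP to move calcium out of the cell across the plasma membrane, and calmodulin activates them when cytosolic calcium rises. PMCA1 (ATP2B1) and PMCA4 (ATP2B4) are found in most tissues, while PMCA2 (ATP2B2) and PMCA3 (ATP2B3) are best known from neurons and a few other excitable or sensory cells. NKAINs are small membrane proteins that interact with the beta subunit of the sodium pump (Na+/K+-ATPase), the related P-type pump that keeps sodium low and potassium high in the cell, and they are best known from the nervous system.

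The 8 genes lay on 7 chromosomes in GRCh38, and only ATP2B4 and NKAIN1, both on chromosome 1, shared one. ATP2B3 spans chrX:153517642-153582939 on the plus strand. NKAIN2 spans chr6:123803865-124825640 on the plus strand, and ATP2B4 spans chr1:203626832-203744081 on the plus strand. NKAIN2 covers 1021776 bp of genome for a canonical transcript of 3374 bp in 7 exons, against 65298 bp for the 22 exons and 6774 bp of ATP2B3. The canonical transcripts of the 4 NKAIN genes had 7 exons each. Their exons 2, 3 and 5 measured 138, 81 and 61 bp in every NKAIN gene, and exon 4 measured 198 bp in NKAIN1, NKAIN3 and NKAIN4 and 201 bp in NKAIN2.

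The 300 bases around the transcript starts of the 3 genes whose counts differed most between the genotypes are shown because the mutated protein is a DNA-binding transcription factor. Each window runs from 250 bases before the start to 50 bases after it. The ATP2B3 (chrX:153517392-153517691) and ATP2B4 (chr1:203626582-203626881) windows are RefSeq promoters on GRCh38.p14. The NKAIN2 window (chr6:123803615-123803914) was read from the GRCh38 genome at the start of the canonical GENCODE transcript, since the RefSeq window (chr6:123804135-123804434) starts downstream of it. All 3 are on the plus strand, and capitals mark GC boxes (GGGCGG on either strand).
ATP2B3: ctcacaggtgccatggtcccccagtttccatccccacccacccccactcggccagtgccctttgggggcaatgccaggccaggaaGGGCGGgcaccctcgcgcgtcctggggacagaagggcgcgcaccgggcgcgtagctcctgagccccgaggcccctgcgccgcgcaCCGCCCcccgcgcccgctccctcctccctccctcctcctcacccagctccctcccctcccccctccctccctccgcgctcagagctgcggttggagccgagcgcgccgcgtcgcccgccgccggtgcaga
NKAIN2: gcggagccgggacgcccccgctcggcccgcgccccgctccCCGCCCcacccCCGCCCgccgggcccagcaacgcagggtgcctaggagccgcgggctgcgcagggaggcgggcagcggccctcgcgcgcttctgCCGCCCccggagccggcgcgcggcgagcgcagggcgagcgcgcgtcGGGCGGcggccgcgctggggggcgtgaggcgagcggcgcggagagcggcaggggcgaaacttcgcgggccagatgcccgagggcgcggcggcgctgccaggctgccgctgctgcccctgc
ATP2B4: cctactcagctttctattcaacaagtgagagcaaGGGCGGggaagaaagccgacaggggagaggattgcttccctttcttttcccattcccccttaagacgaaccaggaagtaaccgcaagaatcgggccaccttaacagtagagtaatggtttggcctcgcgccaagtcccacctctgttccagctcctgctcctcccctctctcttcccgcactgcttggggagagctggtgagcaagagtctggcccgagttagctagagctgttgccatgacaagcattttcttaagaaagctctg

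The NKAIN2 window held 4 GC boxes, at 210, 199, 116 and 70 bases upstream of the start, and 84% of its bases were G or C. The ATP2B3 window held 2 GC boxes, at 165 and 80 bases upstream, with 75.7% G or C. The ATP2B4 window held 1 GC box, 216 bases upstream, with 53.3% G or C. Of 35116 RefSeq promoters of the same length, 45.0% held at least 1 GC box, and their median G and C content was 58.7%. The NF-κB consensus (the κB site) had no match on either strand in these windows or in the 10 RefSeq windows of 6 of the 8 genes, against 5.91% of all RefSeq promoters. The TATA box (TATAAA) had none either, against 11.5% of all. These counts cover only the letters in 300-base windows and say nothing of sites elsewhere. NKAIN3 was not searched, and NKAIN4 had no entry in the table of promoters.

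Of the listed HEK293T markers, 6 of 6 were above 3 counts in at least 1 sample of each group. Between the genotypes, edgeR called 2 of the 6 higher and 1 lower in S80A cells, both untreated and after TNFα (adjusted p under 0.05). Over all genes, 2.05% were called higher and 4.21% lower untreated, and 2.92% and 4.44% after TNFα. The lower marker was the neurofilament gene NEFM, nearly absent from S80A cells. Its mean was 1838 normalised counts in untreated WT cells and 4.49 in untreated S80A cells. Of 10 neuron markers, 5 were above 3 counts in at least 1 sample of each group. The summed level of the list was 35.1 to 41.3 CPM, the count scaled by the size of the library, in untreated WT samples. It was 49.9 to 61.0 CPM in untreated S80A samples (36.4 to 36.8 and 48.6 to 53.9 CPM with TNFα). SNAP25, STMN2, ELAVL3, ELAVL4 and DCX had at most 3 counts in any sample, and of the 5 tested markers 1 was called. NCAM1, a neural adhesion molecule, was higher in S80A cells (log2 difference 0.88 untreated, edgeR adjusted p = 0.00042). MAP2, TUBB3 and SYT1 also had higher means in untreated S80A cells, at 13.9 against 4.73, 277 against 235 and 166 against 149 normalised counts. RBFOX3, a splicing factor of mature neurons, went the other way (-0.72, edgeR adjusted p = 0.212). The median log2 difference of the tested markers was 0.24 untreated, from -0.72 to 1.60, and 3 had an unadjusted edgeR p under 0.05. The part of these neuronal genes in the results below was not tested. Markers of blood, endothelial, liver and muscle cells summed to at most 1.01 CPM in any sample. Samples held 15624878 to 20889577 counts. The untreated S80A sample n2 stood farthest from its group, with a chi-square per gene of 35.8 against n1 and 21.0 against n3, where the other replicate pairs ran from 2.78 to 15.3.

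Of the 8 genes, 6 had enough counts to be tested. ATP2B2 had at most 3 counts in any sample and NKAIN4 had 0 counts in all 12 samples, where 3 counts, the most that a count of 0 allows, correspond to 0.144 to 0.192 CPM. In bulk RNA a higher level per cell and a larger share of expressing cells cannot be told apart. Below, a normalised count is a count scaled to the mean library size, and values are mean ± SD over 3 samples.

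ATP2B3, which encodes PMCA3, had few reads in WT cells and more in every S80A sample. Its normalised counts were 16.6, 9.84 and 18.6 in the untreated WT samples n1 to n3 and 12.5, 12.8 and 17.6 in the WT samples with TNFα. They were 104.7, 37.2 and 57.3 in the untreated S80A samples and 113.0, 53.1 and 41.9 in the S80A samples with TNFα. The lowest S80A sample was above the highest WT sample, so the genotypes did not overlap with or without TNFα. The raw counts behind these values were 11 to 18 in WT samples and from 31 upwards in S80A samples.

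The means of ATP2B3 were 14.99 ± 4.57 in untreated WT cells and 66.4 ± 34.6 in untreated S80A cells, a fitted log2 difference of 2.18 (SE 0.45, n = 3), or 4.52-fold. With TNFα they were 14.3 ± 2.88 and 69.3 ± 38.3, a log2 difference of 2.29 (SE 0.46), or 4.89-fold. The size rested in part on the n1 samples. Without the untreated S80A sample n1 the log2 difference was 1.69, and without the S80A sample n1 with TNFα it was 1.71 after TNFα.

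NKAIN2 showed a genotype difference of similar size with less spread. It had 10.4, 9.84 and 13.4 normalised counts in the untreated WT samples and 10.4, 9.88 and 5.87 in the WT samples with TNFα. It had 36.1, 51.7 and 36.5 in the untreated S80A samples and 46.1, 40.1 and 34.3 in the S80A samples with TNFα. All 6 S80A samples lay above all 6 WT samples. The means were 11.2 ± 1.93 against 41.4 ± 8.87 without TNFα, a log2 difference of 1.86 (SE 0.26) or 3.64-fold, and 8.71 ± 2.47 against 40.2 ± 5.88 with TNFα, a log2 difference of 2.20 (SE 0.28) or 4.60-fold. Raw counts were 6 to 13 in WT samples and 32 to 51 in S80A samples, so counting error is a large part of each value.

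ATP2B4, which encodes the widespread PMCA4, went the other way. Its normalised counts were 1101, 923 and 957 in untreated WT samples and 1008, 1009 and 865 in WT samples with TNFα. They were 799.7, 454 and 602 in untreated S80A samples and 677, 569.8 and 454 in S80A samples with TNFα. Again the genotypes did not overlap, although the highest S80A sample came close to the lowest WT sample. The means were 994 ± 94.7 against 618 ± 173 without TNFα, 1.60-fold lower in S80A cells, and 961 ± 82.8 against 567 ± 112 with TNFα, 1.69-fold lower. The untreated log2 difference of -0.68 (SE 0.17) was -0.91 without the untreated S80A sample n1 and -0.50 without n2, and the difference of -0.76 (SE 0.17) after TNFα was -0.91 without the S80A sample n1.

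The remaining genes showed no such separation. ATP2B1, which encodes the widespread PMCA1, had 2163 ± 97.1 normalised counts in untreated WT cells and 2262 ± 90.3 in untreated S80A cells, with overlapping samples (log2 difference 0.065, SE 0.074). NKAIN1, the NKAIN gene with the most reads here, had 141 ± 18.2 and 162 ± 43.1 (0.20, SE 0.21). NKAIN3 had 17.6 ± 1.11 and 16.2 ± 2.72 (-0.14, SE 0.25). After TNFα the log2 differences were -0.14 for ATP2B1, 0.30 for NKAIN1 and 0.28 for NKAIN3.

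**Figure D1:**
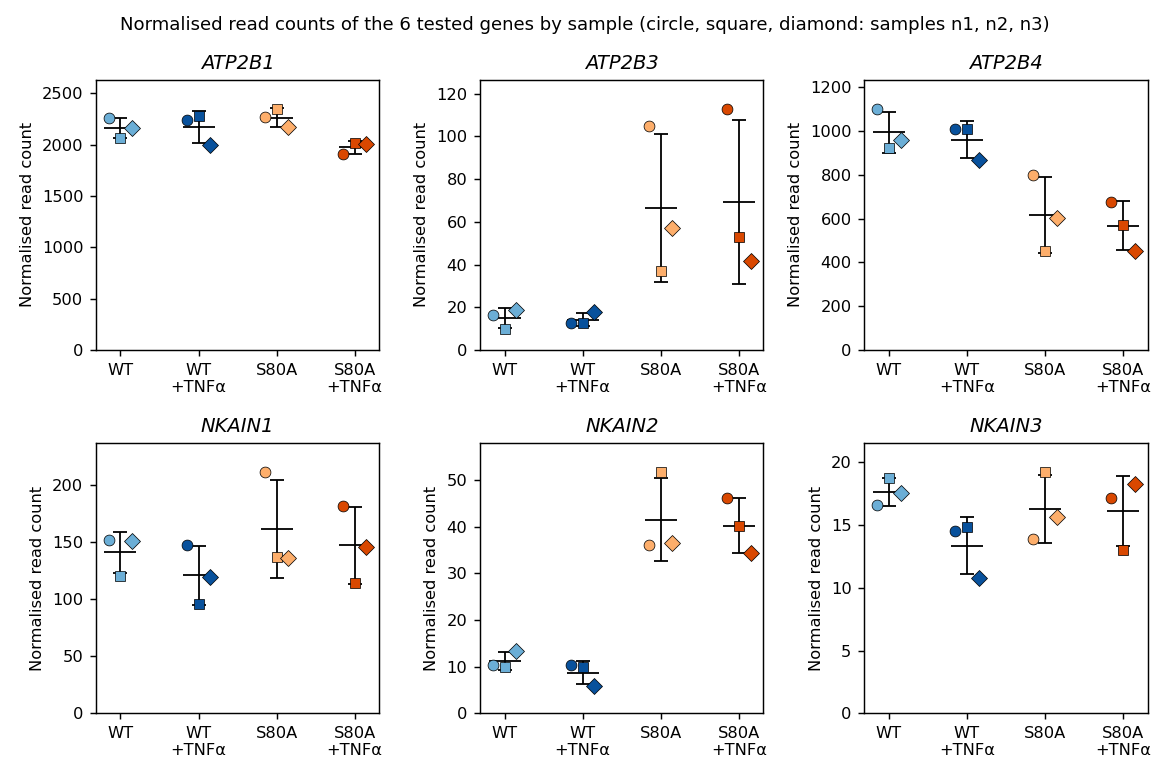
Normalised read counts (y axis, from 0) of the 6 tested genes in each of the 12 samples, with WT samples in blue and S80A samples in orange. Horizontal bars are group means and error bars are SD (n = 3). ATP2B3 and NKAIN2 lie higher and ATP2B4 lower in all 6 S80A samples, and the n1 samples (circles) are the highest S80A samples for ATP2B3.

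Between the genotypes, the samples of 3 of these 6 genes did not overlap with or without TNFα, ATP2B3 and NKAIN2 being higher and ATP2B4 lower in S80A cells. Over all 14383 genes tested, edgeR called 2.05% higher and 4.21% lower in untreated S80A cells (adjusted p under 0.05), and 2.92% higher and 4.44% lower after TNFα. A call at this threshold is a different measure from samples that do not overlap. The share of all genes without overlap was not counted, so these percentages are no background for the 3 genes. The set was selected on these contrasts, so nothing is read from the count of 3.

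Compared per length, ATP2B1 was the leading pump in every group. Levels in CPM per kb of canonical transcript in untreated WT cells were 16.5 ± 0.741 for ATP2B1 and 6.16 ± 0.587 for ATP2B4, followed by 2.60 ± 0.336 for NKAIN1, 0.179 ± 0.0308 for NKAIN2 and 0.119 ± 0.0364 for ATP2B3. NKAIN3 followed at 0.0466 ± 0.00295 and ATP2B2 at 0.0018 ± 0.0031, with NKAIN4 at 0. The level of NKAIN3 per length depends on the gene model, since the last exon of its canonical transcript measures 19551 bp of 20374. The order of the mean levels was the same in all 4 groups. In untreated WT cells only the last neighbours in that order, ATP2B2 and NKAIN4, overlapped between samples. In the S80A groups the samples of ATP2B4 and NKAIN1 overlapped, as did those of NKAIN2 and ATP2B3, which also overlapped in WT cells with TNFα. Both genes of a pair are measured in the same samples, so overlapping ranges do not show that their levels are equal. The differences between neighbours were not tested.

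As a share of the summed PMCA level per length, ATP2B3 made up 0.520 ± 0.147% in untreated WT cells and 2.40 ± 1.11% in untreated S80A cells. With TNFα the shares were 0.510 ± 0.144% and 2.86 ± 1.503%. The share of ATP2B4 was 27.0 ± 1.05% and 17.6 ± 4.05% in untreated cells, and that of ATP2B1 was 72.5 ± 1.06% and 79.9 ± 5.10%. The higher ATP2B3 level was therefore a small part of the family beside the lower ATP2B4 level. The summed level of the family was 22.8 ± 1.33 CPM per kb in untreated WT cells, 21.6 ± 1.29 in untreated S80A cells, 22.6 ± 1.66 in WT cells with TNFα and 19.1 ± 0.611 in S80A cells with TNFα. Among the NKAIN genes, NKAIN2 took 6.34 ± 0.795% of the summed level in untreated WT cells and 18.5 ± 5.73% in untreated S80A cells, and NKAIN1 took most of the rest.

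The S80A samples differed among themselves. The coefficient of variation of ATP2B3 over the 6 S80A samples was 48.2%, with a 3.03-fold range, against 23.5% over the 6 WT samples. For NKAIN2 it was 16.6% in S80A and 24.2% in WT samples. ATP2B4 varied by 22.5% over the S80A samples and 8.35% over the WT samples, and ATP2B1 by 8.15% and 5.33%. The n1 samples were the highest S80A samples of their treatment for ATP2B3, ATP2B4 and NKAIN1. ATP2B3 and ATP2B4 thus moved together among S80A samples although their genotype differences ran in opposite directions. In both genes the untreated sample n2 and the TNFα sample n3 were the 2 lowest. This pair was picked after its values were seen, and the cause of the spread was not tested.

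**Figure D2:**
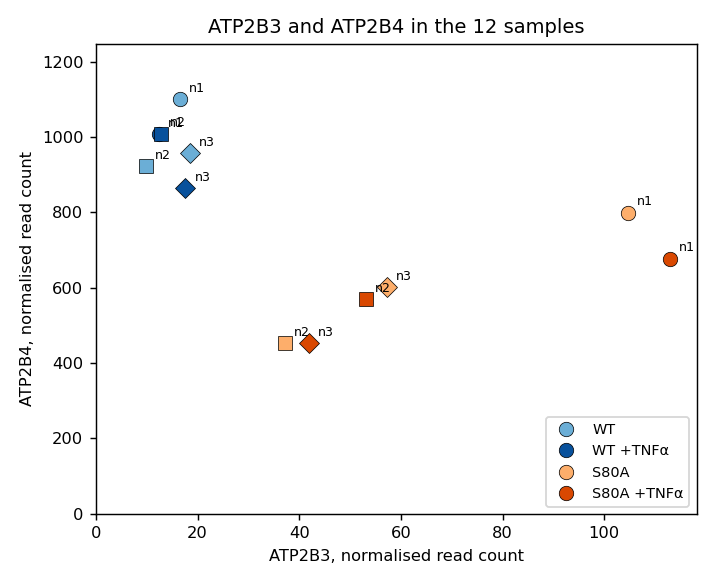
Normalised read counts of ATP2B3 (x axis) and ATP2B4 (y axis) in the 12 samples, labelled by sample number. WT samples sit at the upper left, with ATP2B3 between 9.84 and 18.6, and the S80A samples run from the lower left to the 2 n1 samples, where ATP2B3 reached 104.7 and 113.0.

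TNFα was then compared with no treatment within each genotype, a contrast that the choice of genes did not use. In edgeR 0 of the 6 genes were called in WT cells and 0 in S80A cells, with 0 and 1 at an unadjusted p under 0.05, and DESeq2 called 0 in both. Over all genes, 0.577% were called higher and 0.111% lower in WT cells, and 0.966% higher and 0.292% lower in S80A cells.

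For ATP2B3 the log2 change with TNFα was -0.046 in WT cells (95% interval -1.27 to 1.18) and 0.066 in S80A cells (-0.72 to 0.85). The WT samples held 11 to 18 reads of the gene each. For NKAIN2 the change was -0.36 in WT cells (-1.09 to 0.37) and -0.020 in S80A cells (-0.48 to 0.44). ATP2B4 was measured more closely, at -0.049 in WT cells (-0.41 to 0.32) and -0.13 in S80A cells (-0.50 to 0.25).

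ATP2B1 gave the 1 unadjusted p under 0.05. Its normalised counts were 2269, 2349 and 2169 in untreated S80A samples and 1903, 2012 and 2005 in S80A samples with TNFα, and these groups did not overlap. The log2 change was -0.20 (SE 0.074, 95% interval -0.36 to -0.039) with an edgeR adjusted p of 0.367, so it did not pass. In WT cells the change was 0.0054 (-0.15 to 0.16). NKAIN1 changed by -0.22 (-0.68 to 0.24) in WT cells and -0.13 (-0.58 to 0.32) in S80A cells, and NKAIN3 by -0.40 (-0.95 to 0.15) and 0.016 (-0.53 to 0.56).

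**Figure D3:**
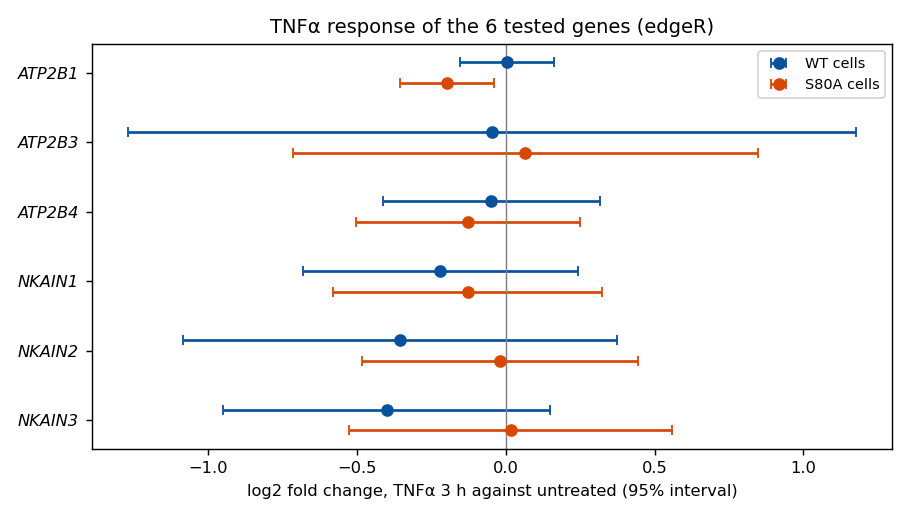
Log2 fold change with TNFα against no treatment (x axis) for the 6 tested genes, in WT cells (blue) and S80A cells (orange), from edgeR. Points are estimates and bars 95% intervals; the ATP2B1 interval in S80A cells (-0.36 to -0.039) is the only one that leaves out 0.

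Whether TNFα acted differently in the 2 genotypes was tested by the interaction of genotype and TNFα. In edgeR 0 of the 6 genes passed and 0 had an unadjusted p under 0.05, where 0% of all 14383 genes passed (520 at an unadjusted p under 0.05, and 0 in DESeq2). The difference of the TNFα effects was 0.11 for ATP2B3 (95% interval -1.34 to 1.57), 0.34 for NKAIN2 (-0.52 to 1.20) and -0.20 for ATP2B1 (-0.43 to 0.021). The higher level of ATP2B3 and NKAIN2 in S80A cells was thus present before TNFα was added, and the fitted genotype differences were 2.18 and 1.86 without TNFα and 2.29 and 2.20 with it.

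A list of 48 related ion transport genes was set beside the pumps. It held the calcium pumps of the endoplasmic reticulum (SERCA) and Golgi (SPCA), sodium-calcium exchangers, sodium pump subunits and their FXYD partners, PMCA partners, and channels of calcium entry, release and mitochondrial uptake. Of the 48, 36 were tested. In untreated cells 3 were higher and 1 lower in S80A cells (edgeR adjusted p under 0.05), with a median log2 difference of -0.050 against 0.013 over all genes, of which 2.05% were called higher and 4.21% lower. After TNFα 2 were higher and 1 lower, with a median of -0.010 against -0.0037, and 2.92% and 4.44% of all genes were called.

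Calcium release and uptake genes gave the calls seen in both comparisons. RYR2, a ryanodine receptor that releases calcium from the endoplasmic reticulum, had 29.0, 26.8 and 30.9 normalised counts in untreated WT samples and 101.9, 38.4 and 78.1 in untreated S80A samples. It was higher in all 3 S80A samples (log2 difference 1.36, SE 0.29, edgeR adjusted p = 0.0136), and also after TNFα (1.08, SE 0.29, adjusted p = 0.0358). MCU, the pore of the mitochondrial calcium uniporter, had 748, 747 and 760.1 in untreated WT samples and 534, 627 and 579.9 in untreated S80A samples, and was lower in all 3 (-0.38, SE 0.085, adjusted p = 0.0170). After TNFα its difference was -0.44 (SE 0.085, adjusted p = 0.00673). When each of the 12 samples was left out in turn, RYR2 stayed called in 11 fits untreated, all but the one without the untreated WT sample n2, and in 4 after TNFα, with log2 differences from 0.90 to 1.64, while MCU stayed called in 7 fits untreated and in 12 after TNFα.

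Among the sodium pump and FXYD subunits, 2 of 7 tested genes were called in untreated cells and 0 after TNFα. ATP1B1, a beta subunit, had 464, 456 and 486 in untreated WT samples and 652, 634 and 551 in untreated S80A samples (log2 difference 0.39, SE 0.10, edgeR adjusted p = 0.0388), but after TNFα its difference was 0.14 (adjusted p = 0.493). FXYD6, a regulatory subunit, had 130.4, 154.8 and 131.0 in untreated WT samples and 202, 218.7 and 170.2 in untreated S80A samples (0.50, SE 0.13, adjusted p = 0.0352), and 0.35 (adjusted p = 0.125) after TNFα. Both lost the untreated call in 6 of 12 fits that left out 1 sample, and none of the 4 untreated calls of the list was made in a fit to the 6 untreated samples alone. ATP1B3, the beta subunit with the most reads, was not called.

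Among PMCA partners, basigin (BSG), a chaperone-like subunit of PMCAs, had 10918, 11169 and 12087 normalised counts in WT samples and 12843, 13647 and 14292 in S80A samples with TNFα, a log2 difference of 0.25 (SE 0.068, edgeR adjusted p = 0.0363). Without TNFα the difference was 0.12 (adjusted p = 0.350), and the call after TNFα was lost in 8 of the 12 fits without 1 sample. Neuroplastin (NPTN), the other such subunit, was not called. The 3 SERCA genes, the 1 tested SPCA gene and the 7 tested exchangers were not called in either comparison. With TNFα, 0 of the 36 were called in WT cells and 0 in S80A cells by edgeR and by DESeq2, with 0 and 6 at an unadjusted p under 0.05, and the interaction gave 0 in both tools and 0 unadjusted.

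Genes beside ATP2B3 and NKAIN2 were then examined, to see whether the differences extended along the chromosome. Of 41 tested genes within 1 Mb of ATP2B3, 2 were higher and 3 lower in untreated S80A cells, with a median log2 difference of -0.0069, and 4 were higher and 2 lower after TNFα, with a median of 0.13. Of the 454 tested genes of chromosome X, 8.15% were called in untreated cells and 9.25% after TNFα, against 2.05% higher and 4.21% lower, then 2.92% and 4.44%, over all genes. The difference between these shares was not tested. The higher genes included PNCK, a calcium/calmodulin-dependent kinase whose start lies 171 kb from that of ATP2B3. It had 18.6 ± 6.35 normalised counts in untreated WT cells and 49.5 ± 14.7 in untreated S80A cells (log2 difference 1.38, edgeR adjusted p = 0.0172). PDZD4, 313 kb away, differed by 0.50 untreated and 0.71 after TNFα (adjusted p = 0.0463 and 0.00636). L1CAM, a neural cell adhesion molecule 369 kb away, differed by 1.91 after TNFα (adjusted p = 0.0101) and by 1.14 untreated (adjusted p = 0.131). When 1 of the 12 samples was left out, the untreated calls of PNCK and PDZD4 were lost in 3 and 9 fits, and after TNFα those of PNCK and L1CAM were lost in 7 and 2, with every difference still above 0. FAM3A, 999 kb away, was the remaining higher gene (0.27 after TNFα, edgeR adjusted p = 0.0451, lost in 9 fits).

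The lower genes near ATP2B3 were the cancer-testis antigens MAGEA3 and MAGEA6, which share near-identical sequence so that their reads are uncertain, and in untreated cells DUSP9 (log2 difference -0.35, edgeR adjusted p = 0.0241, lost in 5 of the 12 fits without 1 sample). MAGEA6 had 86.0 ± 9.73 normalised counts in untreated WT cells and 3.85 ± 3.10 in untreated S80A cells. Between these 2 genes, MAGEA2, MAGEA2B, MAGEA12, CSAG1 and CSAG3 had too few counts to be tested. They had 0 counts in all S80A samples, and untreated WT means from 1.29 (CSAG1) to 4.29 (MAGEA12). CSAG4, also between them, had 0 in both genotypes untreated. The cause was not tested. Within 1 Mb of either end of NKAIN2, 7 genes were tested. TPD52L1 was lower in both comparisons (-0.73 and -0.80, edgeR adjusted p = 0.00970 and 0.00601), and HEY2 was higher in untreated cells (0.42, adjusted p = 0.0348). The untreated calls were lost in 1 of the 12 fits without 1 sample for TPD52L1, that without the WT sample n2 (-0.63), and in 7 for HEY2. In a fit to the 6 untreated samples alone, the untreated calls of TPD52L1, HEY2, PNCK, PDZD4 and DUSP9 were all lost, and the call of FAM3A was lost in a fit to the 6 samples with TNFα. The median log2 difference was 0.029 over the 454 tested genes of chromosome X and 0.059 over the 671 of chromosome 6 in untreated cells, against 2.18 for ATP2B3 and 1.86 for NKAIN2.

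Over the 12 samples, the genes whose log2 CPM followed ATP2B3 most closely were ENO2 (Pearson r = 0.959), LOC102724621 (0.941), FAT3 (0.939), RHPN1 (0.936) and DHRS2 (0.935). For NKAIN2 they were CROCC (0.959), SLC22A23 (0.944), HCN2 (0.940), LOC102724621 (0.940) and ENO2 (0.934). All 8 of these genes were higher in S80A samples, so each r holds the split between the genotypes, and the values are a description of 12 samples. Within the 6 S80A samples r with ATP2B3 ran from 0.834 to 0.949 for its 5 genes, and r with NKAIN2 from 0.0789 to 0.607 for its own. The genes were picked on these same 12 samples, so r within S80A samples is not a separate observation. Within the 6 WT samples r ran from -0.78 to 0.57 for ATP2B3 and from -0.21 to 0.81 for NKAIN2. The lowest in both was LOC102724621, which had 0 counts in every WT sample, so its r there holds only the scaling of the libraries. ENO2, a glycolytic enolase best known from neurons, had 323 to 381 normalised counts in WT samples and 662 to 901.6 in S80A samples.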

How the data were processed

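RNA from 12 HEK293T samples was sequenced as single-end 75 bp reads from stranded poly(A)-selected libraries. Per the labels and the study's methods, the authors aligned reads to GRCh38 with HISAT and counted them per gene with HTSeq, and they deposited raw counts. Versions and the strand setting are not given in the sources used here, and reads shared by ATP2B paralogs are uncertain. Of 33121 rows, 28 with dates for symbols were left out. The members and gene lists were chosen with earlier results of these data known, and the named genes are the members, the called related and neighbouring genes, and the 5 genes of highest Pearson r.

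Genes passing filterByExpr (minimum count 10; 14383) were scaled by TMM and fitted with edgeR 4.0.16 (R 4.3.3) as 4 group means, with quasi-likelihood tests and Benjamini-Hochberg adjustment at 0.05. DESeq2 1.42.0 was an alternative. The standard error is the log2 fold change over the square root of F, so intervals of genes with few counts are slightly narrow. Gene models came from GENCODE, with CPM per kb over the canonical transcript. The study's methods describe the triplicates as generated independently, while the labels do not say whether they were separate cultures. The p-values set a group difference against the spread between samples of a group, with no separate estimate of the spread between clones. Floors cover counting error only. The WT sample n3 with TNFα was identified by its title, since its description repeats that of n2. The fits were tested on simulated data. The authors' other deposited lists, which hold their log2 fold changes, p-values and normalised signal, were not used. Some genes of the related list are not reported here by name.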

Additional observations from a re-analysis of the deposited data

How the results depend on the processing

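The TNFα and interaction tests called 0 of the 6 genes under every alternative run. Outside the fits that left out 1 sample, 492 of 522 values for single genes kept their direction and side of the threshold, 24 kept the direction but not the call, and 6 turned direction. Those 6 were small changes with TNFα. For ATP2B1 in WT cells the value was -0.00134 with DESeq2, -0.00146 with DESeq2 size factors, -0.0113 with total counts and -0.00474 with a mean of at least 10 counts. With both S80A samples n1 left out, an alternative chosen after seeing the data, ATP2B3 was -0.025 and NKAIN3 -0.13 in S80A cells. The cause was not tested.

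Over all genes, TNFα in WT cells gave 99 calls and 161 with DESeq2. TNFα in S80A cells gave 181, or 71 in a fit to only the 6 samples compared and 103 without both S80A samples n1. S80A against WT gave 900 calls untreated, or 456 with only those 6 samples, and 1058 after TNFα, or 632 without both S80A samples n1. Of the related genes, 4 were called untreated and 3 after TNFα. The untreated count was 7 with no filter on low counts and 0 with only the 6 samples compared. Why these counts moved was not tested. Whether same-numbered samples were paired is not known. With group means removed, 4 of 18 same-numbered pairs had r over 0.1 (mean r -0.019), against 16 of 36 other pairs (mean r 0.0094). The S80A samples n1 had r = 0.34 with each other, and with 3 samples a group this check cannot exclude pairing. The replicate block gave 113, 208, 1232, 1469 and 0 calls over all genes, and 8 and 7 of the related genes in place of 4 and 3.

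When 1 sample was left out, calls over all genes ran from 65 to 145 (TNFα, WT), 98 to 193 (TNFα, S80A), 356 to 1039 (S80A against WT, untreated) and 434 to 1646 (after TNFα). The related genes ran from 0 to 4 and from 1 to 6. The lowest counts came, in that order, without the untreated WT sample n1, the S80A sample n1 with TNFα, the untreated WT sample n2 (also the 0 of the related genes) and the WT sample n2 with TNFα. The 1646 and the 6 came without the untreated S80A sample n2. Log2 changes with TNFα in WT cells ran from -0.026 to 0.060 for ATP2B1, -0.29 to 0.14 for ATP2B3 and -0.098 to 0.033 for ATP2B4. In S80A cells they ran from -0.51 to 0.55 for ATP2B3, -0.30 to 0.10 for ATP2B4, -0.31 to 0.12 for NKAIN1, -0.14 to 0.15 for NKAIN2 and -0.083 to 0.14 for NKAIN3. The interaction ran from -0.46 to 0.60 for ATP2B3, -0.26 to 0.15 for ATP2B4 and -0.093 to 0.34 for NKAIN1. Depth limits ATP2B3 and NKAIN2 in WT cells, with 6 to 18 reads a sample.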
